A study of Homo sapiens with 6 samples.

Results

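Genes of sphingomyelin and ceramide synthesis were followed in BCWM1, an established human line derived from Waldenström macroglobulinemia, a lymphoma that spans B cells and plasma cells. There are 10 of them, SPTLC1, SPTLC2, CERS2, CERS4, CERS5, CERS6, DEGS1, SGMS1, SGMS2 and UGCG, out of 19775 genes that had a probe set annotated with 1 gene symbol. They carried 25 such probe sets. The list was chosen by the large difference of SGMS2 between mutated and parental cells, so the differences of its members in that contrast are given as a description, without p-values. Whether SGMS2 differs is therefore not a finding of this comparison.

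Total RNA was labelled with biotin as cRNA and measured on 6 microarrays, 3 of parental BCWM1 cells and 3 of BCWM1 cells labelled as mutated. The series title ties the mutation to the chemokine receptor CXCR4 and writes it as C1013G. The sources used here do not say how the mutated cells were made, whether they are 1 clone or whether a vector control was kept. Nor do they call the 3 samples of a group independent cultures, and p-values then cover only the spread among these samples, possibly technical.

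Ceramide is built in steps. Serine palmitoyltransferase joins serine to palmitoyl-CoA, the product is reduced to sphinganine, ceramide synthases attach an acyl chain, and the desaturase DEGS1 turns dihydroceramide into ceramide. Ceramide then goes on mainly to sphingomyelin, made by SGMS1 and SGMS2, or to glucosylceramide, made by UGCG. In B cells sphingomyelin and cholesterol form the ordered membrane regions in which the B cell receptor gathers.

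Array medians ran from 28.46 to 29.13 in parental and from 30.93 to 31.83 in mutated samples, in units of the deposited intensity. Every mutated median lay above every parental one. Results with median centring are given below for genes whose call, as defined here, was lost with it. Calls gained with it are not named 1 by 1. All differences are mutated minus parental on the scale log2(intensity + 16), on which dim probe sets are compressed. A probe set is called where limma, fitted to 32768 probe sets after the dimmest 40% were left out, gave a Benjamini-Hochberg adjusted p under 0.05. The B cell markers MS4A1, CD79A, CD79B, PAX5, CD22 and BLNK were bright, with a summed intensity of 26299.7 to 27018 in parental and 26513 to 27320 in mutated samples. CD79B (0.63) and CD79A (0.23) rose on the log2 scale, CD22 (−0.41) fell, and the other 3 did not pass. Of 6 plasma cell markers, 4 fell and 2 did not pass, and their sum was 16938 to 17505 in parental and 12374 to 13005 in mutated samples. The part of these markers in the differences below was not tested. Summed T and NK cell markers lay between 167 and 202 and myeloid markers between 59.6 and 69.5 over all 6 samples, epithelial markers between 84.9 and 164, and fibroblast and endothelial markers, most of it COL1A1 and PECAM1, between 1018 and 1124. That steady sum held a fall of COL1A1 (−0.67) and a rise of PECAM1 (0.72). In RNA of a whole culture, a level per cell and a share of expressing cells cannot be told apart. The brightest CXCR4 probe set read 4703 to 4800 in parental and 4206 to 4357 in mutated samples, a log2 difference of −0.15, and the other 2 gave −0.50 and −0.57. All 3 were lower in mutated cells without overlap, which does not check the mutation itself.

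SGMS2 is the gene on which the list turns, and its start regions are shown here because its brightest probe set went from near the bottom of the parental arrays to well above the array median in mutated cells, although its 2 dimmer ones stayed below that median. RefSeq (GRCh38.p14) lists 3 starts for SGMS2 on chromosome 4 and 1 for its paralog SGMS1 on chromosome 10. The 250 bases before the start are given for SGMS1 and for the first 2 starts of SGMS2, 5′ to 3′ on the gene's strand. Capitals mark GC boxes (GGGCGG on either strand) and AP-1 sites (TGANTCA on either strand). N was any base, which is looser than the usual G or C at that place.

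SGMS1, chr10:50623957-50624206, minus strand: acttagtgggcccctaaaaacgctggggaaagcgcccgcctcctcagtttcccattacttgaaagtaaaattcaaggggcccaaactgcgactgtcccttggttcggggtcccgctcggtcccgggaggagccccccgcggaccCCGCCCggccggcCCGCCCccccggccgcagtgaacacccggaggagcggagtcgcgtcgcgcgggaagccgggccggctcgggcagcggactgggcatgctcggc
SGMS2 first start, chr4:107824313-107824562, plus strand: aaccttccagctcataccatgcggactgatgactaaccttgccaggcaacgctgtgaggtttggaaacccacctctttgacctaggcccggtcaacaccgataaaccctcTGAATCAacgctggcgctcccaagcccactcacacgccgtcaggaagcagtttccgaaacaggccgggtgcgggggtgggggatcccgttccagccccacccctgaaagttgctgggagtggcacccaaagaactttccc
SGMS2 second start, chr4:107824682-107824931, plus strand: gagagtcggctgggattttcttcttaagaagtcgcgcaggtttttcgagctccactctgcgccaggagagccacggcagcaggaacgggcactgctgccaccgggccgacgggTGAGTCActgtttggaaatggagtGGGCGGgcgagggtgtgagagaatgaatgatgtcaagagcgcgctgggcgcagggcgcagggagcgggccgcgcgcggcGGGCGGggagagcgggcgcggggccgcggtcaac

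The SGMS1 window is 70.0% G and C with 28 CpG pairs and holds 2 GC boxes and 0 AP-1 sites. The first SGMS2 window is 58.8% G and C with 12 CpG pairs and holds 0 GC boxes and 1 AP-1 site, of the looser form TGAATCA. The second, 369 bases downstream, is 67.2% G and C with 28 CpG pairs and holds 1 AP-1 site (TGAGTCA) and 2 GC boxes. The third SGMS2 start lies a further 68342 bases downstream, at chr4:107893024-107893273, and its window is 38.0% G and C with 2 CpG pairs, 1 TATA box (TATAAA) and 1 CCAAT box (CCAAT). The 35116 windows of this length in the table have a median of 58.0% G and C and 11 CpG pairs, and 42.6% hold a GC box, 6.6% an AP-1 site, 32.0% a CCAAT box and 10.7% a TATA box. Windows were found for 8 of the 10 genes. SGMS2 was the only one of these 8 with an AP-1 site in a window, but it also had the most windows. It had 3, DEGS1 had 2 and each other gene 1. The third SGMS2 window holds 0 AP-1 sites and 0 GC boxes. The motifs were picked after the sequences had been read, a match is no evidence of binding, and the probe sets do not tell which start was used.

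SGMS2 makes sphingomyelin mainly at the plasma membrane. Its brightest probe set, 227038_at, read 4.89, 4.84 and 3.76 in parental samples 1 to 3 and 379, 365 and 401 in mutated samples 1 to 3. The groups did not overlap. Between 10.6% and 14.4% of an array's probe sets were dimmer in parental samples, and between 80.4% and 81.2% in mutated samples. The log2 difference was 4.28 (SE 0.046 from the 6 samples), and it depends on the pseudocount because the parental values are so dim, at 6.13 with a pseudocount of 1 and 2.70 with 64. The probe set passed the filter only through its mutated values.

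The other 2 SGMS2 probe sets were much dimmer and were left out of the fit by the filter. Probe set 242963_at read 4.02, 4.09 and 3.73 in parental and 25.8, 29.3 and 21.4 in mutated samples, a log2 difference of 1.05. Probe set 243141_at read 7.21, 1.94 and 5.09 in parental and 21.6, 22.9 and 16.4 in mutated samples, a log2 difference of 0.81. On each of the 3 probe sets the mutated values all lay above the parental ones, so the direction was shared while the size was not. The mutated values of these 2 probe sets were still below the median of their own array.

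SGMS1 makes sphingomyelin in the Golgi and has 1 probe set here. It read 721, 704 and 669 in parental and 1027, 972 and 1018 in mutated samples, a log2 difference of 0.52 (SE 0.040). All 3 mutated values lay above the parental ones. SGMS1 was thus well above the array medians in both groups, while of the 3 SGMS2 probe sets only 227038_at was so, and in mutated cells alone.

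**Figure D1:**
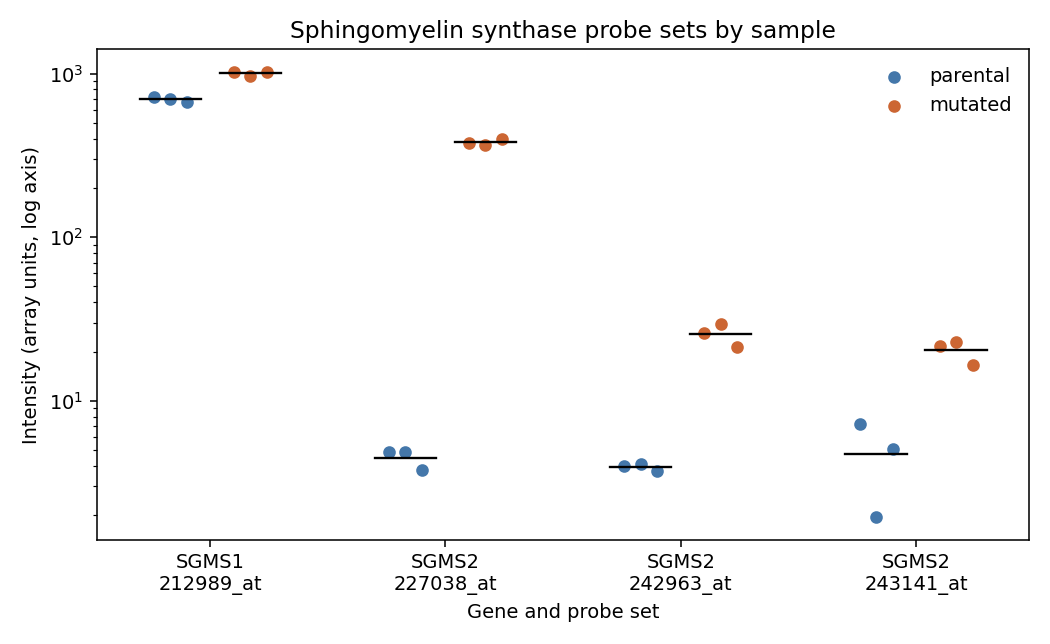
Intensity (log axis) of the SGMS1 probe set and the 3 SGMS2 probe sets in each parental (blue) and mutated (orange) sample, with the group mean as a black line. SGMS2 probe set 227038_at goes from under 5 in the 3 parental samples to 365 to 401 in the 3 mutated samples, while SGMS1 goes from 669 to 721 up to 972 to 1027.

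The genes whose 6 log2 values lay nearest to those of SGMS2 were FBXO16 (Euclidean distance 0.15), PDE3A (0.46), CAVIN2 (0.47), MIR99AHG (0.47) and EPHA3 (0.74). Each was dim in the 3 parental samples and bright in the 3 mutated ones. FBXO16, for example, read 4.51, 4.27 and 3.29 in parental and 356, 394 and 394 in mutated samples. With 6 samples in 2 groups, this likeness reflects little more than the level in each group.

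The first enzyme, serine palmitoyltransferase, is a complex of SPTLC1 with the catalytic subunit SPTLC2. The brightest SPTLC1 probe set, 202277_at, read 2062, 2068 and 2086 in parental and 2350.4, 2326 and 2382 in mutated samples, a log2 difference of 0.18 (SE 0.011). The groups did not overlap, and the difference was 0.10 with median centring of the arrays, where it was no longer called. Probe set 1554053_at read 130.0, 120 and 123 in parental and 222, 224 and 208 in mutated samples, a difference of 0.74. On the third, 202278_s_at, the groups overlapped, at 280, 230 and 205 against 256, 209 and 191, a difference of −0.11 (SE 0.17). The 3 SPTLC1 probe sets therefore did not give one answer.

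SPTLC2 has 5 probe sets, of which 4 had every mutated value above every parental one, with log2 differences from 0.47 to 0.65. The brightest, 203127_s_at, read 386, 389.6 and 366 in parental and 554, 588 and 543 in mutated samples, a difference of 0.54 (SE 0.043). On 216203_at the groups overlapped, at 56.4, 42.2 and 53.1 against 46.6, 41.1 and 44.9, a difference of −0.14. That probe set was the dimmest of the 5.

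Ceramide synthases differ in the acyl chain they attach. CERS6 prefers the palmitoyl chain and was higher in mutated cells on each of its 4 probe sets without overlap, with log2 differences from 0.23 to 0.61. Its brightest, 212446_s_at, read 1472, 1516 and 1387 in parental and 1768, 1662 and 1725 in mutated samples, a difference of 0.23 (SE 0.045). The 2 brightest CERS6 probe sets gave 0.16 with median centring and were then not called.

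CERS4, which attaches longer chains, has 1 probe set and read 54.5, 48.8 and 65.8 in parental and 93.6, 95.7 and 78.5 in mutated samples, a log2 difference of 0.54 (SE 0.12). The groups did not overlap, but the spread within each was wide for this dim probe set. The difference was 0.36 with quantile normalization and 0.35 with a pseudocount of 64. CERS2, which attaches very long chains, read 406, 420.5 and 399 in parental and 428, 408 and 394 in mutated samples. Its log2 difference was 0.0052 (SE 0.039), and −0.074 with median centring. CERS5, which like CERS6 uses the palmitoyl chain, read 589.8, 579.9 and 608 in parental and 600.1, 628 and 602 in mutated samples on its brighter probe set, a difference of 0.041 (SE 0.029) and −0.038 with median centring. Both CERS5 probe sets and that of CERS2 overlapped between groups. Of the 4 synthases, CERS4 and CERS6 were thus higher in mutated cells, while CERS2 and CERS5 stayed within the spread of the samples.

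DEGS1 was lower in mutated cells on both of its probe sets without overlap. Probe set 209250_at read 865, 913 and 894 in parental and 648, 631 and 721 in mutated samples, a log2 difference of −0.41 (SE 0.062). Probe set 207431_s_at read 747, 687 and 619.95 in parental and 429.95, 449 and 458 in mutated samples, a difference of −0.60 (SE 0.080). DEGS1 is the enzyme of the last step to ceramide, and its sign was opposite to that of SPTLC2 and CERS6, which act before it.

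For UGCG, the enzyme that opens the glycosphingolipid branch, each of 3 probe sets was lower in mutated cells without overlap. The brightest, 224967_at, read 3420.1, 3609.8 and 3456 in parental and 2753, 2772 and 2806 in mutated samples, a log2 difference of −0.33 (SE 0.025). Probe set 204881_s_at read 1536, 1544 and 1466 in parental and 996, 970.4 and 1038 in mutated samples, a difference of −0.59. Probe set 221765_at gave −0.62. The 2 sphingomyelin synthases and the glucosylceramide synthase, which all take ceramide as a substrate, thus differed in opposite directions. Whether they draw on a shared supply of it was not measured.

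**Figure D2:**
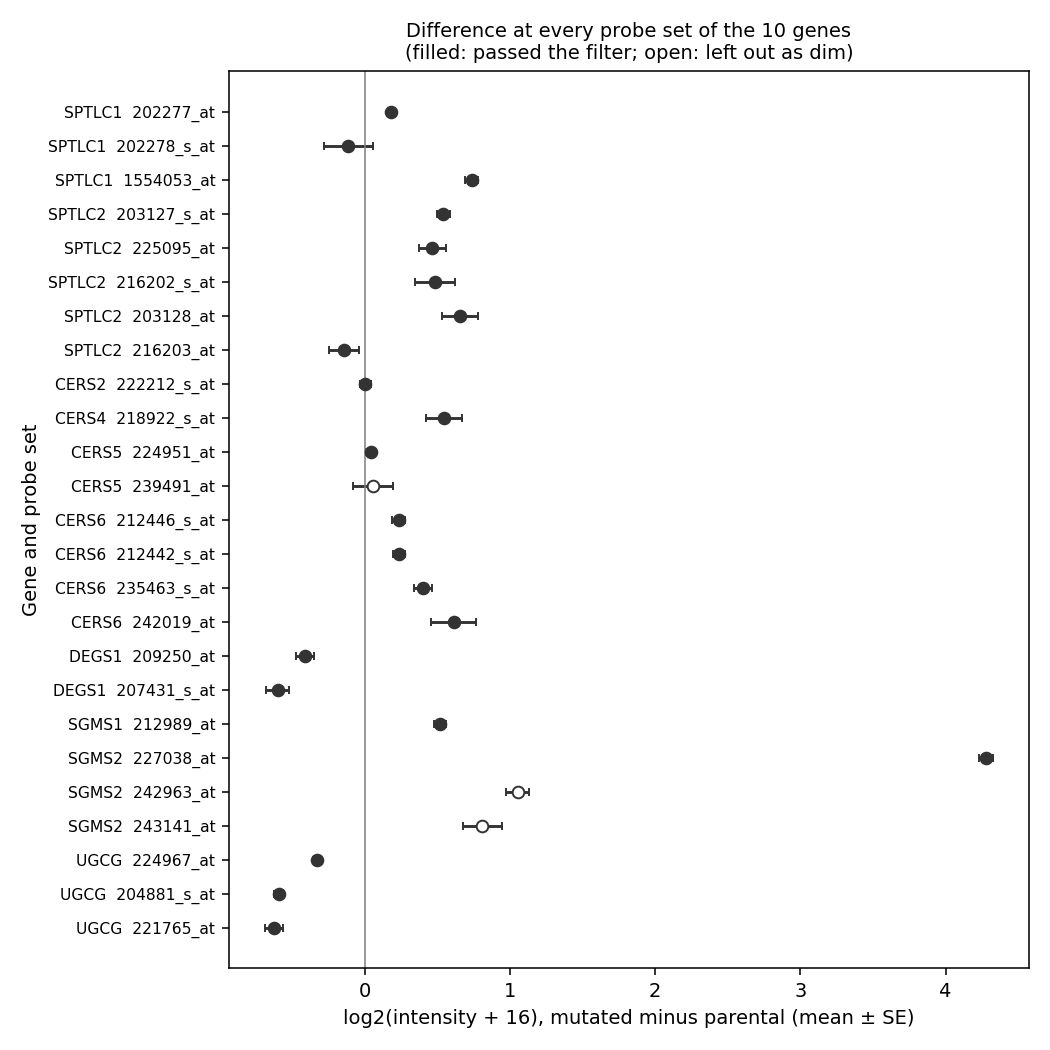
Log2 difference (mutated minus parental, log2(intensity + 16), with its standard error from 3 samples a group) at each of the 25 probe sets. Filled points passed the filter on dim probe sets and open points did not. DEGS1 and UGCG lie below 0 on every probe set and SGMS2 lies highest at 4.28.

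**Figure D3:**
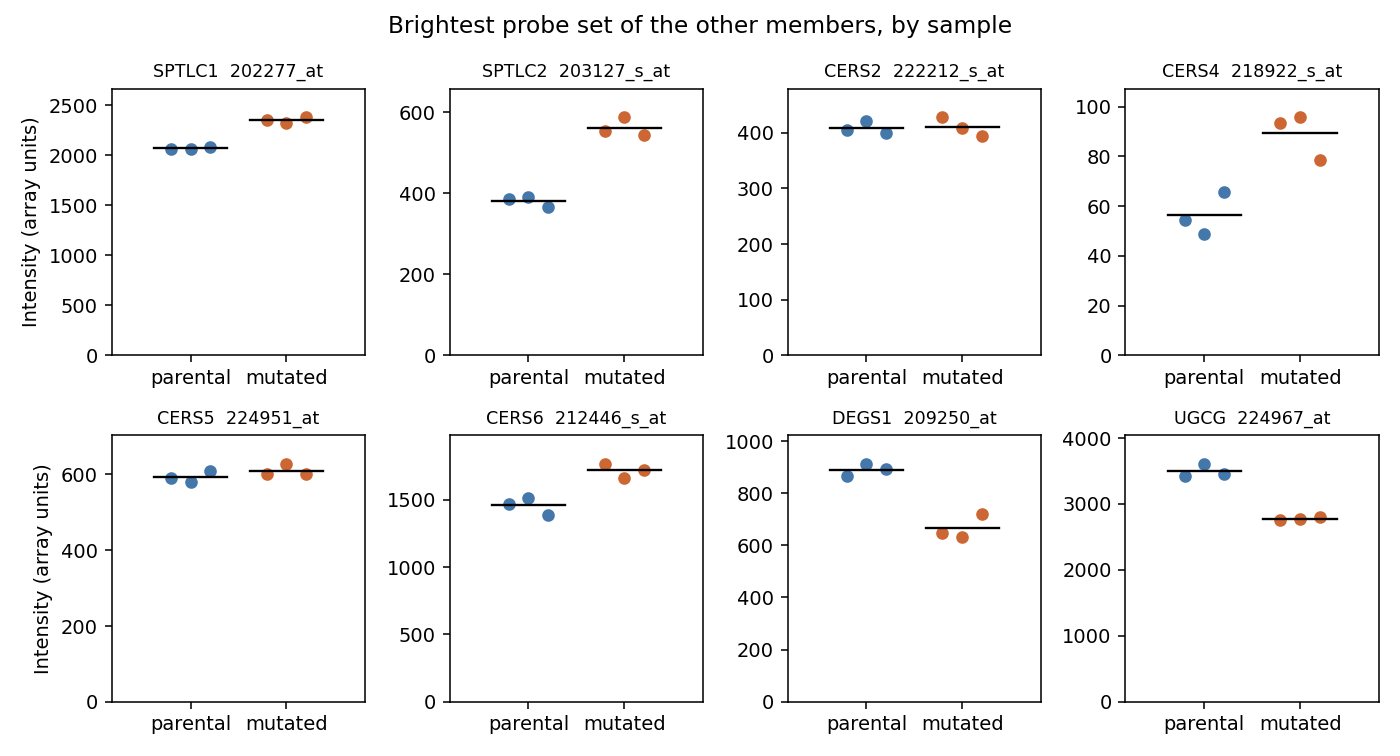
Intensity (linear axis from 0) of the brightest probe set of the 8 genes other than the sphingomyelin synthases, by sample, with group means as black lines. The groups overlap for CERS2 and CERS5, and separate upward for SPTLC1, SPTLC2, CERS4 and CERS6 and downward for DEGS1 and UGCG.

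Counted over all 25 probe sets, mutated values lay above every parental value on 15, below on 5 and overlapped on 5. Over all 54613 probe sets the groups did not overlap on 41.2%. Of the 22 probe sets that passed the filter, 13 were called higher and 5 lower, where 30.9% of the 32768 tested probe sets were called higher and 16.6% lower. The contrast chose the list, so nothing is read from these counts. The median log2 difference over the brightest probe sets of the 9 genes other than SGMS2 was 0.18, against 0.038 over the 13644 genes tested.

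The pathway's other genes were taken from 5 lists of 81 genes by their textbook roles, none of them among the 10. The lists were chosen with earlier results of these data known, so their counts and p-values are not those of an unselected set. A gene stood for its brightest tested probe set, and 54 of the 81 were tested. Of these, 19 rose, 8 fell and 27 did not pass, against 30.1% of all 13644 genes that rose and 18.9% that fell. The median log2 difference was 0.11, against 0.038 over all genes. Rises made up 70.4% of the calls here and 61.5% over all genes, but 52.2% and 46.1% with median centring, and 66.7% and 49.4% with quantile normalization, so the balance depends on the scaling.

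Among other genes of ceramide synthesis, 2 of 7 tested rose, 1 fell and 4 did not pass. KDSR, which reduces the product of serine palmitoyltransferase, rose from 858 ± 53.6 to 1327 ± 41.5 (SD, n = 3), a log2 difference of 0.62 (SE 0.062; limma, adjusted p = 0.00035). Its other 2 tested probe sets gave 0.94 and 0.83. An SE printed with a limma p is limma's own, unlike the SE from the samples given above. SPTSSB, a small activating subunit of serine palmitoyltransferase, rose from a dim 19.4 ± 1.34 to 45.4 ± 8.11 (SD, n = 3; limma, adjusted p = 0.00085). FA2H, which hydroxylates the acyl chain, fell from 39.2 ± 5.32 to 23.9 ± 4.68 (SD, n = 3; limma, adjusted p = 0.012). With a pseudocount of 64 SPTSSB gave 0.39 and FA2H −0.23. The 3 ORMDL genes, which restrain serine palmitoyltransferase, were not called on their brightest probe sets, with log2 differences from −0.018 to 0.065, though dimmer ones gave −0.23 and 0.38 for ORMDL1 and 0.45 for ORMDL3. SPTSSA, the other small subunit, gave 0.14 on its brightest probe set (limma, adjusted p = 0.098) and 0.73 on the other.

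Of 8 tested genes of sphingomyelin turnover and ceramide transfer, 2 rose, 1 fell and 5 did not pass. VAPB, a membrane protein of the endoplasmic reticulum that anchors lipid transfer proteins, rose from 899.97 ± 26.1 to 1240.1 ± 20.7 (SD, n = 3), a log2 difference of 0.46, and its other 2 probe sets gave 0.25 and 0.40. OSBP, a sterol transfer protein, rose by 0.18 on its brightest probe set, and the other 2 gave −0.50 and 0.49. NSMAF, an adaptor of neutral sphingomyelinase activation, fell by 0.25 on the log2 scale on its brightest probe set. The next brightest NSMAF probe set gave −0.31, and dimmer tested ones gave 0.16, which was not called, and 0.28. OSBP was not called without parental replicate 1 (limma, adjusted p = 0.0726) or without mutated replicate 1 or 2 (0.0554 and 0.063), and gave 0.097 with median centring (adjusted p = 0.172). NSMAF was not called without parental replicate 3 (limma, adjusted p = 0.0578) or without mutated replicate 1 or 2 (0.0567 and 0.0578). CERT1, which carries ceramide from the endoplasmic reticulum to the Golgi for sphingomyelin synthesis, was not called on any of 4 probe sets, with log2 differences from −0.015 to 0.15. SAMD8, the third relative of the sphingomyelin synthases, which makes ceramide phosphoethanolamine, gave 0.10 on its brightest probe set (limma, adjusted p = 0.42) and 0.79 on a dimmer one. The sphingomyelinase genes SMPD1 and SMPD3 were left out as dim, and SMPD2 gave 0.0045. SMPDL3A, a relative of acid sphingomyelinase, was left out as dim too and was singled out after its values were seen. Its brighter probe set read 26.9, 28.2 and 24.4 in parental and 6.87, 5.23 and 7.78 in mutated samples, a log2 difference of −0.91 without overlap.

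Of 13 tested genes of ceramide breakdown and sphingosine phosphate, 4 rose, 3 fell and 6 did not pass. PLPP1, a lipid phosphate phosphatase, rose from 203 ± 18.1 to 557 ± 7.71 (SD, n = 3), a log2 difference of 1.39 (SE 0.069; limma, adjusted p = 1.7e-05), and by 1.43 on its other probe set. Its relative PLPP3 fell from 409 ± 19.9 to 232 ± 14.4 (SD, n = 3), a log2 difference of −0.78 (SE 0.065; limma, adjusted p = 0.00016). The ceramidases ACER3 (0.60), ACER2 (0.44) and ASAH1 (0.15) rose, ACER2 by 0.27 with quantile normalization and 0.28 with a pseudocount of 64. SGPP1, a sphingosine phosphate phosphatase, fell by 0.34 on the log2 scale on its brightest probe set, and the lyase SGPL1 by 0.21, though another SGPL1 probe set gave 0.16. The brightest ASAH1 probe set was not called with any 1 of the 6 samples removed (limma, adjusted p from 0.0504 to 0.128) or with median centring (0.339). Dimmer ASAH1 probe sets gave 0.20 and 0.35, which were called, 0.096, which was not, and −0.25 on one left out as dim. SGPL1 was not called without parental or mutated replicate 1 (limma, adjusted p = 0.05 and 0.0514). The sphingosine kinase SPHK1 gave −0.071 (limma, adjusted p = 0.65).

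Of 17 tested genes of glycosphingolipids, 7 rose, 1 fell and 9 did not pass. B3GALNT1, which builds globoside, read 2.93, 4.71 and 4.32 in parental and 103, 113 and 99.5 in mutated samples on its brightest probe set, and the groups did not overlap. Its parental values were among the dimmest of their arrays, so it passed the filter only through the mutated samples, and no p-value is given for it although it is counted among the 7. Its log2 difference was 2.60, but 4.43 with a pseudocount of 1 and 1.32 with 64, and the other tested probe set gave 2.25. PSAP, the precursor of the saposins that assist lysosomal sphingolipid breakdown, rose from 2266 ± 16.8 to 3793 ± 119 (SD, n = 3), a log2 difference of 0.74. The glycolipid transfer genes GLTP (0.70) and PLEKHA8 (0.63) and the lysosomal activator gene GM2A (0.40) rose as well, with adjusted p of at most 0.0018 for these 4 genes (limma, Benjamini-Hochberg). GBA2, a glucosylceramidase outside the lysosome, fell by 0.18 on the log2 scale on its brightest probe set and by 0.53 on the other. It was not called without parental replicate 1, 2 or 3 or mutated replicate 1 or 2 (limma, adjusted p from 0.0532 to 0.139). The lactosylceramide synthase gene B4GALT5 gave −0.076 on its brightest probe set and ST3GAL5, which makes the ganglioside GM3, gave −0.11. Neither passed, though for both the mutated values lay below the parental ones without overlap. The other B4GALT5 probe set gave −0.40. With median centring 5 genes of this list rose and 3 fell. B4GALT6, another lactosylceramide synthase gene, rose by 0.22 on its brightest probe set, and GLA, which codes for a lysosomal galactosidase, rose by 0.14. On the other B4GALT6 probe sets the groups overlapped, at 0.052, −0.23 and 0.39. B4GALT6 was not called with median centring (limma, adjusted p = 0.0992), without parental replicate 1 or 3 (0.066 and 0.0602) or without mutated replicate 1 or 3 (0.0577 and 0.0516). GLA was not called with median centring (limma, adjusted p = 0.324), with quantile normalization (0.12) or with any 1 of the 6 samples removed (0.0605 to 0.122). Both were added to the named genes after their values were seen.

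Of 9 tested genes of fatty acid activation and elongation, which supply acyl chains, 4 rose, 2 fell and 3 did not pass. TECR (0.32), ELOVL5 (0.21), HSD17B12 (0.21) and HACD3 (0.21) rose, each an enzyme of the elongation cycle. TECR gave 0.22 with quantile normalization, and its other probe set overlapped between groups at 0.13, so that TECR was not called when probe sets of the _s_at and _x_at kinds were left out (limma, adjusted p = 0.408). With median centring ELOVL5, HSD17B12 and HACD3 gave 0.14, 0.13 and 0.13 and were not called. ACSL4, an acyl-CoA synthetase, fell from 2691 ± 83.1 to 1431 ± 73.2 (SD, n = 3), a log2 difference of −0.90 (SE 0.057; limma, adjusted p = 4.8e-05), and its other probe sets gave −0.73 and −0.49. ACSL1 gave −0.15 on its brightest probe set, which was not called with any 1 of the 6 samples removed (limma, adjusted p from 0.0583 to 0.125). The other ACSL1 probe set gave −0.33 and was called.

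**Figure D4:**
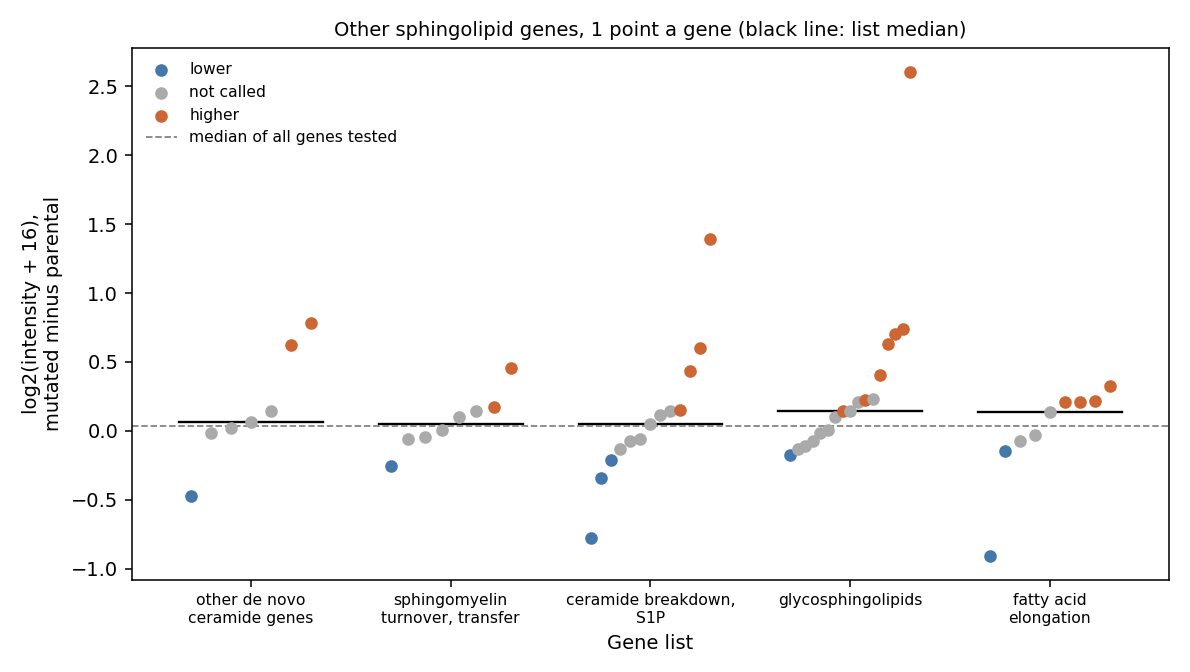
Log2 difference (mutated minus parental, log2(intensity + 16)) of the 54 tested genes in the 5 lists, 1 point a gene at its brightest tested probe set, coloured by call, with list medians as black lines and the median of all genes tested, 0.038, as a dashed line. B3GALNT1 (2.60) and PLPP1 (1.39) lie highest and ACSL4 (−0.90) and PLPP3 (−0.78) lowest.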

How the data were processed

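The authors deposited a linear intensity for each probe set of 6 arrays. The sources used here do not give the summary method, the background correction or the normalization. Of 54613 probe sets, 41091 have 1 gene symbol in the platform annotation, and only these were named. Values were taken as log2(intensity + 16), the dimmest 40% of probe sets by mean over all 6 samples were left out, and 32768 were fitted with limma 3.58.1 in R 4.3.3 (lmFit, eBayes, group as the only term, two-sided), with Benjamini-Hochberg adjustment over all of them and a threshold of 0.05. No detection calls were used, and the number of arrays limits the precision. The fit was also tested on simulated data, but no outcome is given here and none is used for the calls. Members and lists were chosen with earlier results of these data known. Every member was named. In each list, up to 5 called genes with the largest difference and no overlap were named, as was every gene of a count of 5 or fewer; other genes of the lists are named for their role. The SGMS2 likeness took the 5 nearest genes. Start regions are from RefSeq, GRCh38.p14. Figures used matplotlib 3.10.9 in Python 3.11.15.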

Additional observations from a re-analysis of the deposited data

How the results depend on the processing

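The SGMS2 log2 difference was 4.20 with median centring, 6.13 with a pseudocount of 1 and 2.70 with 64, and 4.24 to 4.31 with any 1 sample left out. The median over the 9 other genes was 0.10 with median centring, against −0.041 over all tested genes under that setting. It was 0.17 to 0.19 with a sample left out. Member probe sets called higher numbered 13 with any sample left out and 10 with median centring, and those lower 5 to 6. Calls over all genes moved with the setting as well. Rises made up 61.5% of them in the main fit, 46.1% with median centring and 61.0% with a pseudocount of 64. The replicate block called 6258 of all genes, against 6683 in the main fit. The percentages are shares of the calls, not of all probe sets or genes tested. Outside the replicate block, no number called over all probe sets or genes is set beside the counts here. Nothing is therefore read from any of the counts. Pathway genes that rose numbered 12 with median centring, when 11 fell, and 15 to 18 with a sample left out, when 5 to 7 fell. They numbered 25 with trend and robust moderation, when 10 fell, 22 with a pseudocount of 64, when 9 fell, and 15 without _s_at and _x_at probe sets, when 8 fell. With quantile normalization GBA2 gave −0.32 and SGPL1 −0.33. The number that fell was 5 without parental replicate 1, without mutated replicate 1 and without mutated replicate 2. With the replicate block, 13 member probe sets were higher and 5 lower, and 17 pathway genes rose and 6 fell; ASAH1, GBA2, ACSL1 and GLA were then not called (limma, adjusted p = 0.0696, 0.0801, 0.0916 and 0.0803). Same-numbered samples deviated together with correlations of 0.11, 0.027 and 0.11 over probe sets, against −0.11 to 0.0028 for samples of differing number. Each sample thus correlated best with its own number, though weakly. Deviations from a group mean cancel within the group, so part of this contrast is built in. Whether the numbers stand for pairs or for shared handling was not tested. Without the filter 15 member probe sets were higher, while OSBP, ASAH1, GBA2, ACSL1 and GLA were not called (limma, adjusted p from 0.051 to 0.0958). With a gene's probe sets averaged, NSMAF, OSBP, SGPL1 and B4GALT6 gave −0.033, 0.055, −0.027 and 0.11 and were not called. Depth of signal limits SGMS2 in parental cells, where all values lay far below the array medians.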
